A study of Aegilops tauschii x Triticum turgidum and Aegilops tauschii and Triticum turgidum subsp. durum with 18 samples.

Results

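Transcript levels in the natural hexaploid wheat Courtot were set against those in synthetic hexaploid wheats, on 8 of the 18 arrays of the series. Of these, 2 arrays held Triticum aestivum cv Courtot and 6 held synthetics, which all had the tetraploid Triticum turgidum cv Joyau as a parent. The other parent was the goat grass Aegilops tauschii, either ssp. strangulata accession 36 (group S0_36) or ssp. tauschii accession 54 (groups S0_54 and S1_54), with 2 arrays in each synthetic group. S0 and S1 are selfed generations 0 and 1 of the hybrid. All arrays were chosen by their labels, none by a measured value. The arrays of Joyau and of both Aegilops accessions (Ae36 and Ae54), 2 each, gave parental levels, and with 2 pairs of RNA mixes they entered the estimate of the spread. All samples were whole plants of 40 days without treatment, grown at 24 °C with 16 h of light, and 40 µg of RNA was used for each hexaploid array. Both Ae36 arrays and Ae54 replicate 2 had less RNA than all other arrays, and the part of this in the parental levels was not tested. The labels call the plant arrays biological replicates and give the genotype of every sample, parents included, as hexaploid.

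Bread wheat carries the A, B and D genomes. The A and B genomes came from a tetraploid wheat and the D genome from Ae. tauschii, so that many genes exist in related copies, called homoeologs, one per genome. A synthetic hexaploid repeats that cross with living accessions, and newly formed polyploids of wheat are known for loss of sequence and for altered expression of some homoeologs. Courtot is 1 cultivar with its own A, B and D genomes, not those of Joyau, accession 36 or accession 54, so cultivar and natural against synthetic origin cannot be told apart in these data. A microarray probe set also reads a sequence that differs from its probes less brightly, and the match of Courtot's sequences to the probes was not measured. In whole plants, fewer cells of a type and less RNA per cell cannot be told apart either.

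Values are log2 levels, so that a difference of 1 is a doubling, and a level near 2 to 3 is the floor of these arrays, where a difference understates the change. The 8 hexaploid arrays had medians of 2.86 to 2.94 over all probe sets, and 12902 to 14132 probe sets per array reached a level of 5. A total of 18189 probe sets reached 5 on at least 2 of the 18 arrays and were tested. The 2 Courtot arrays correlated at r = 0.959 across these probe sets, and the pairs within the synthetic groups at 0.970 to 0.976. Across probe sets, Courtot arrays correlated with S0_54 arrays at 0.882 to 0.902, with S0_36 arrays at 0.799 to 0.864 and with S1_54 arrays at 0.764 to 0.850, while arrays of different synthetic groups reached 0.875 to 0.931. The SD of the difference between replicate arrays was 0.604 in Courtot and 0.460 to 0.528 in the synthetic groups. Added poly-A control RNAs had mean levels of 4.20 and 4.78 on the Courtot arrays and 5.57 to 6.99 on the synthetic arrays, without overlap. The hybridization controls were at 9.20 and 8.46 in Courtot and at 9.02 to 10.34 in the synthetics. Sucrose synthase, read by probe sets along the transcript, had a 3′ minus 5′ difference of 5.34 and 4.08 in Courtot and 3.88 to 4.49 in the synthetics. The part of these control levels in the results was not tested.

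Courtot differed from the mean of the 3 synthetic groups at many probe sets, in both directions. A probe set was called at an adjusted p under 0.05 in limma's moderated test across all probe sets. Of the 18189, 4806 were called (26.4%), 2633 higher in Courtot (14.5%) and 2173 lower (11.9%). The balance of directions depended on the scaling, the filter and either Courtot array. After each array was centred on its median, 2481 were higher and 2543 lower, and after quantile normalization 2632 and 2571. With no filter on low levels, 2715 were higher and 1685 lower. The median difference over all tested probe sets was 0.0545. It was 0.116 without Courtot replicate 1 and 0.0052 without Courtot replicate 2. With a difference of at least 1, 1367 were higher (7.52%) and 1347 lower (7.41%). With a difference of at least 4, 93 were higher and 54 lower, and with at least 6, 19 were higher and 3 lower. Among probe sets with a mean hexaploid level under 4, 36.0% were called, 284 higher and 153 lower. Among those over 10, 19.7% were called, 93 higher and 121 lower. Probe sets with a mean under 4 were tested only if they reached 5 on at least 2 arrays, which the Courtot arrays can supply alone. The filter can thus select for a difference in this class, and these shares are not like for like. The part of the filter in them was not tested. Both Courtot arrays lay above or below all 6 synthetic arrays at 5768 probe sets (31.7%), above at 3352 and below at 2416. The number of calls fell to 1996 without Courtot replicate 1 and to 3259 without Courtot replicate 2, either of which leaves Courtot with a single array, and to 3187 without S1_54.

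**Figure D1:**
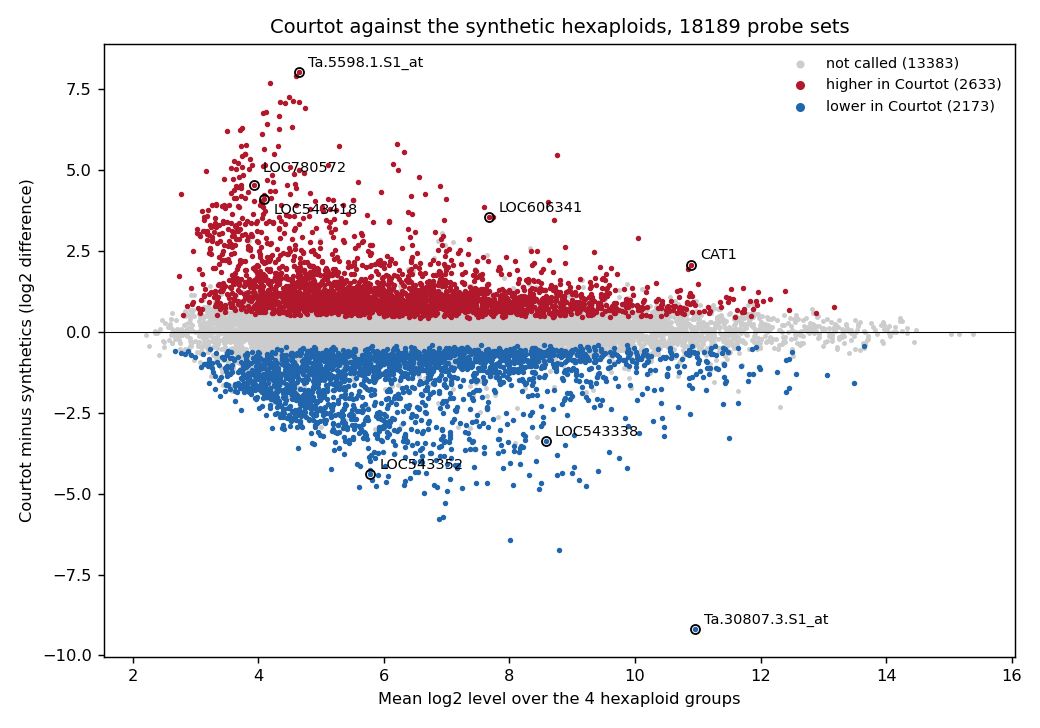
Difference in log2 level, Courtot minus the mean of the 3 synthetic groups, against the mean log2 level over the 4 hexaploid groups, for the 18189 tested probe sets. Red points are the 2633 probe sets called higher in Courtot, blue points the 2173 called lower and grey points those not called. The differences furthest from 0 are 8.02 for Ta.5598.1.S1_at and -9.18 for Ta.30807.3.S1_at.

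Only 716 of the tested probe sets carry a gene name, for 511 genes, and for nearly all of them the name is a LOC identifier without a description, so no role is given for those. Of the 716, 114 were called higher and 75 lower, 189 in all. This is 26.4% of them, the share among all tested probe sets. The genes described next are the 12 with the largest differences in each direction, of 50 genes higher and 30 lower that were called, differed by at least 1 and had both Courtot arrays outside the range of the 6 synthetic arrays. In their description, Courtot or the synthetics are placed above or below the parental range only where their mean lies more than 0.5 beyond the highest or lowest of the 3 parental means, and otherwise within it.

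**Figure D2:**
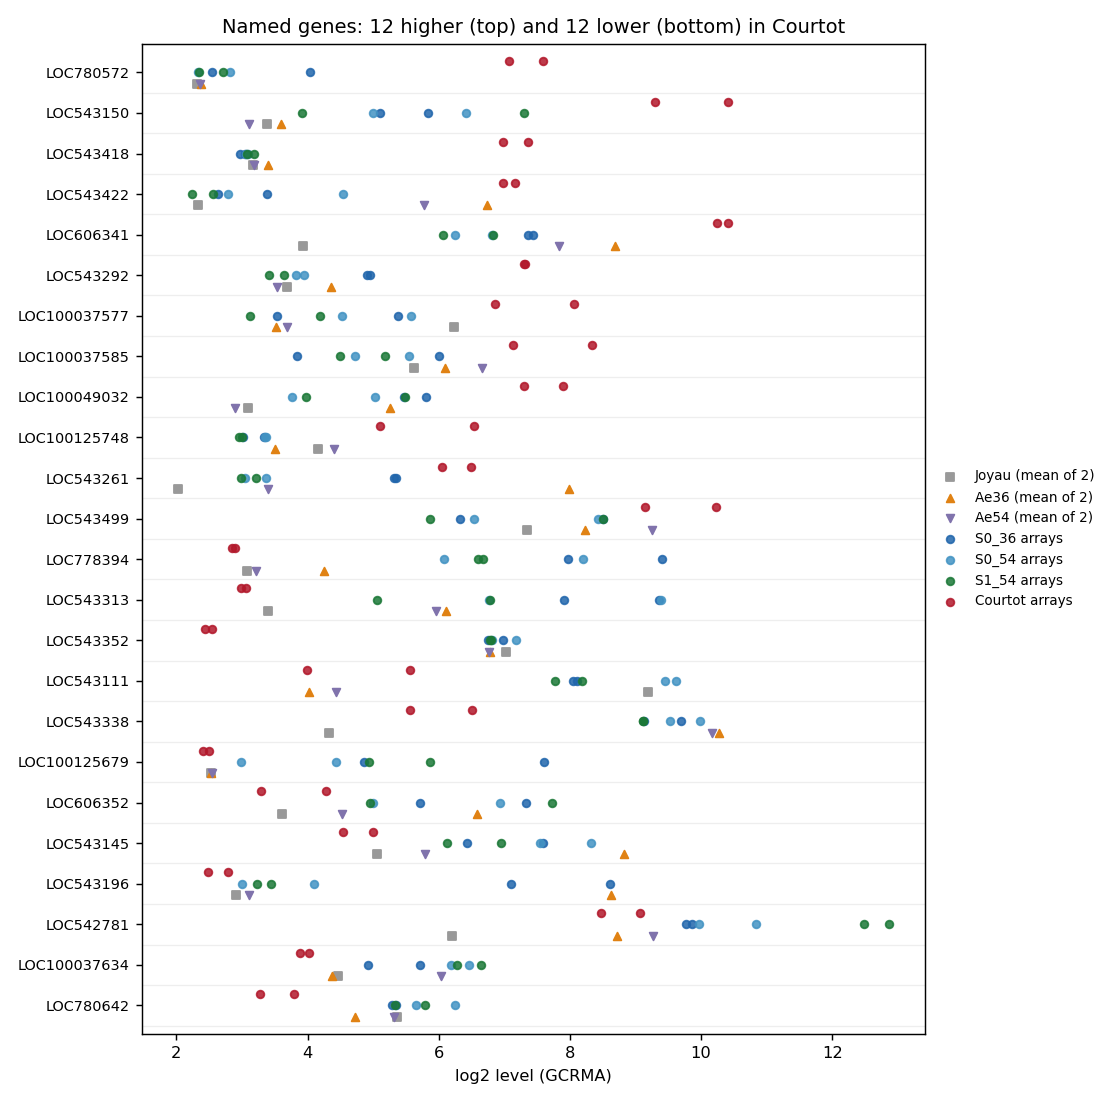
Log2 levels of the 12 genes highest (top rows) and the 12 lowest (bottom rows) in Courtot relative to the synthetics, 1 row per gene. Circles are single hexaploid arrays, in red for Courtot, and squares and triangles are the means of the 2 arrays of each parent. The rows were chosen so that the red circles lie outside the other circles. The position of the parents differs from row to row, as for LOC780572, with parents at 2.32 to 2.38, and LOC543352, with parents at 6.76 to 7.02.

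LOC780572, LOC543418 and LOC543292 were higher in Courtot and low in all synthetics and parents. LOC780572 was at 7.08 and 7.59 in Courtot, at 2.33 to 4.03 on the synthetic arrays, and at means of 2.32 in Joyau, 2.38 in Ae36 and 2.37 in Ae54. The highest synthetic array was S0_36 replicate 3, and the other 5 were below 3. Its difference was 4.54 ± 0.33 (SE, adjusted p = 3.4e-06). LOC543418 was at 7.36 and 6.98 in Courtot, with synthetic arrays at 2.97 to 3.18 and parental means at 3.16 to 3.40. A second probe set of this gene, Ta.24991.1.S1_x_at, was at 10.83 and 10.63 in Courtot and at 10.05 to 10.80 in the synthetics, with a difference of 0.27 (adjusted p = 0.236). The 2 probe sets of LOC543418 thus gave unlike readings, one with Courtot apart from all other groups and the other without a call. LOC543292 was at 7.30 and 7.32 in Courtot and at 3.42 to 4.95 in the synthetics, and parental means were 3.53 to 4.36. LOC100125748 was at 6.54 and 5.10 in Courtot and at 2.96 to 3.36 in the synthetics, but some parents were less low, with Joyau at 4.16 and the Ae54 arrays at 3.41 and 5.41. Its call was lost without Courtot replicate 1 (adjusted p = 0.0647, the highest over 17 alternatives).

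LOC543150 differed by 4.26 ± 0.72 (SE, adjusted p = 0.00211), with levels of 10.41 and 9.30 in Courtot against parental means of 3.11 to 3.60. The synthetic arrays lay between these, from 3.91 to 7.29, and those 2 extremes were the 2 arrays of S1_54. The other probe set of LOC543150, Ta.30711.1.S1_x_at, gave -0.27 (adjusted p = 0.67) and was highest on the S0_36 arrays, at 8.48 and 9.46. LOC606341 was at 10.24 and 10.41 in Courtot, at 6.06 to 7.44 in the synthetics, and at 3.92 in Joyau, 8.69 in Ae36 and 7.83 in Ae54. Both the synthetics and Courtot thus lay above Joyau for LOC606341, and only Courtot lay above both Aegilops parents as well. Its other 2 probe sets were not called, with differences of 0.57 (adjusted p = 0.143) and -0.38 (adjusted p = 0.117).

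For another set of genes Courtot was higher than the synthetics but within the parental range or above its highest mean by less than the margin. LOC543422 was at 6.99 and 7.16 in Courtot, beside 6.73 in Ae36 and 5.77 in Ae54, whereas Joyau was at 2.33 and 5 of the 6 synthetic arrays at 2.23 to 3.39. S0_54 replicate 3 was at 4.54, and the mix of Joyau and Ae54 RNA, at 8.78 and 8.74, was above Courtot. Its difference was 4.05 ± 0.49 (SE, adjusted p = 0.000207), and 2 further probe sets of LOC543422 were called in the same direction, by 3.74 and 2.51. The latter, Ta.62.1.S1_x_at, had Courtot replicate 1 at 8.55, below S0_54 replicate 3 at 8.63, and Joyau at 7.92. Against single groups that probe set was called for S1_54 but not for S0_36 (adjusted p = 0.137) or S0_54 (adjusted p = 0.234). LOC543261 was at 6.49 and 6.05 in Courtot and split the synthetics by cross on this probe set. The S0_36 arrays were at 5.35 and 5.32 and the other 4 synthetic arrays at 2.98 to 3.37, beside parental means of 7.98 in Ae36, 3.40 in Ae54 and 2.02 in Joyau. A second probe set of LOC543261 was also called, by 2.15 (adjusted p = 0.000424). On it, S0_36 minus S0_54 was 0.79 and not called (adjusted p = 0.241), with S0_54 at 4.63 and 5.31. LOC543499 was at 10.22 and 9.14 in Courtot and at 5.86 to 8.51 in the synthetics, with parental means of 7.34 to 9.25. The call for LOC543499 (adjusted p = 0.0418) was lost under 9 of 18 other settings.

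The other 3 genes with large positive differences varied widely between replicate arrays. LOC100037577 was at 8.07 and 6.85 in Courtot and at 3.13 to 5.58 in the synthetics, with Joyau at 6.24. LOC100037585 was at 8.34 and 7.13 in Courtot and at 3.85 to 6.01 in the synthetics, and the Ae54 arrays were at 5.21 and 8.10, the latter above Courtot replicate 2. Its call (adjusted p = 0.0181) was lost without Courtot replicate 1 and without a filter on low levels, with an adjusted p of up to 0.186. LOC100049032 was at 7.90 and 7.29 in Courtot and at 3.76 to 5.81 in the synthetics, with Joyau at 3.09, Ae54 at 2.89 and Ae36, level with the synthetics, at 5.25. The Courtot mean was above the 3 parental means for each of these genes.

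Of the 12 genes lower in Courtot, LOC543352 and LOC780642 were those for which Courtot stood below the parental range by the margin of 0.5. LOC543352 was at 2.43 and 2.55 in Courtot, at the floor, and at 6.75 to 7.18 on the synthetic arrays. Its parental means of 7.02, 6.79 and 6.76 in Joyau, Ae36 and Ae54 were level with the synthetics, and its difference of -4.39 ± 0.17 (SE, adjusted p = 2.42e-08) had the smallest error of the 24 genes. LOC780642 was at 3.79 and 3.27 in Courtot and at 5.29 to 6.24 in the synthetics, with parental means of 4.72 to 5.37.

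For 4 other genes Courtot was within the parental range, or below its lowest mean by less than the margin, and the mean of the synthetics was above it. LOC778394 was at 2.90 and 2.85 in Courtot and at 6.08 to 9.41 in the synthetics, while the parental means were 3.08, 4.25 and 3.21. A second probe set of LOC778394 showed the same pattern, with a difference of -4.16 beside -4.62 for the first. LOC543313 was at 3.06 and 2.99 in Courtot and at 5.06 to 9.39 in the synthetics, beside 3.39 in Joyau and 6.11 and 5.96 in the Aegilops parents. The mix of Joyau and Ae54 RNA, however, was at 8.79 and 8.81 for LOC543313, above the means of S0_54 (8.07) and S1_54 (5.92), so a level above the parental means was not particular to the synthetics. LOC100125679 was at 2.50 and 2.41 in Courtot and at 2.98 to 7.60 in the synthetics, with all 3 parental means at 2.52 to 2.55. Against single groups it was called for S0_36 and S1_54 but not for S0_54 (-1.25, adjusted p = 0.341). For LOC100125679 the synthetic arrays reached from near the floor to more than 5 log2 units above it, and the call (adjusted p = 0.00888) was lost without either Courtot array or without a filter. LOC542781 was at 9.07 and 8.47 in Courtot, within the parental means, and at 9.77 to 10.84 in both S0 groups, and S1_54 stood above these at 12.49 and 12.87. The mix of Joyau and Ae54 RNA was also above the parental means of LOC542781, at 10.40 and 10.48.

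A further set of genes differed between the parents, and the Courtot mean lay closer to the lowest parental mean than that of the synthetics did. LOC543111 was at 4.00 and 5.56 in Courtot, near Ae36 at 4.02 and Ae54 at 4.44, and the synthetic arrays, at 7.77 to 9.61, were near Joyau at 9.19. For LOC543338 the parents were reversed, with Joyau at 4.33 and the Aegilops means at 10.27 and 10.16. Courtot, at 5.57 and 6.51, lay between Joyau and the synthetics, which were at 9.11 to 9.98. Their differences were -3.75 ± 0.34 (SE, adjusted p = 2.28e-05) for LOC543111 and -3.38 ± 0.28 (SE, adjusted p = 1.09e-05) for LOC543338, and a second probe set of each gene gave -3.58 and -3.31. Another probe set of LOC543111, Ta.30622.1.S1_x_at, was called in the other direction, by 0.63 (adjusted p = 0.0193), and was highest in the Aegilops parents. LOC543145 was at 4.53 and 5.00 in Courtot, close to Joyau at 5.06, and at 6.13 to 8.32 in the synthetics. LOC543196 was at 2.48 and 2.78 in Courtot and at 7.10 and 8.61 in S0_36, whose Aegilops parent was at 8.63. In S0_54 and S1_54 it was at 3.00 to 4.09, with Ae54 at 3.11. Against single groups LOC543196 was called for S0_36 but not for S0_54 (-0.92, adjusted p = 0.307) or S1_54 (-0.70, adjusted p = 0.315). LOC100037634 was at 4.02 and 3.89 in Courtot and at 4.92 to 6.64 in the synthetics, and another probe set of this gene was not called (-0.29, adjusted p = 0.245). LOC606352 was at 4.29 and 3.29 in Courtot and at 4.95 to 7.73 in the synthetics, and its call (adjusted p = 0.0351) was lost under 8 of 18 other settings. Its other probe sets were not called, at -1.84 (adjusted p = 0.0914) for Ta.3749.1.S1_at and -1.69 (adjusted p = 0.0694) for Ta.3729.1.A1_at. On Ta.3749.1.S1_at the parental means lay close together, at 4.07 to 4.71.

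The 8 tested genes that carry a gene symbol gave 4 genes higher in Courtot, none lower and 4 without a call, where 14.5% of all tested probe sets were higher and 11.9% lower. They include CAT1, a catalase, which breaks down hydrogen peroxide, SAHH, S-adenosylhomocysteine hydrolase, which clears the by-product of methylation reactions, and GAPN, a cytosolic glyceraldehyde phosphate dehydrogenase of the non-phosphorylating kind, which makes NADPH. CAT1 was at 12.36 and 12.53 in Courtot. Its synthetic arrays were at 9.95 and 10.11 in S0_36, 10.66 and 11.10 in S0_54 and 9.91 and 10.54 in S1_54, and the parental means were 12.89 in Joyau, 11.09 in Ae36 and 11.92 in Ae54. Courtot was thus within the parental range for CAT1, and the mean of the synthetics was below it. The difference was 2.06 ± 0.20 (SE, adjusted p = 3.35e-05), and it stayed called under all 18 other settings, at 1.96 to 2.17. Against single groups CAT1 was higher in Courtot by 2.41 for S0_36, 1.56 for S0_54 and 2.22 for S1_54, all called.

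SAHH was higher in Courtot on both of its probe sets, by 1.10 ± 0.27 (SE, adjusted p = 0.0152) and 1.17 ± 0.31 (SE, adjusted p = 0.0203). On the first, the Courtot arrays were at 11.86 and 11.51 and the synthetic arrays at 10.20 to 11.02, with parental means at 11.87 in Joyau, 11.78 in Ae36 and 11.00 in Ae54. Against single groups both SAHH probe sets were called for S0_54 (1.40 and 1.56) but not for S0_36 (adjusted p = 0.0691 and 0.0806) or S1_54 (adjusted p = 0.0559 and 0.0926). GAPN was at 9.66 and 9.45 in Courtot and at 7.86 to 8.87 in the synthetics, and Joyau was at 10.18. Its difference was 1.09 ± 0.25 (SE, adjusted p = 0.0103), and against single groups it was called for S0_36 (1.20) and S1_54 (1.16) but not for S0_54 (0.90, adjusted p = 0.0998). Alpha-tubulin (TUBA), a subunit of microtubules, was at 11.59 and 11.10 in Courtot and at 10.52 to 10.86 in the synthetics, a difference of 0.71 ± 0.20 (SE, adjusted p = 0.0234), called against S0_36 and S1_54 but not S0_54 (adjusted p = 0.162). For SAHH, GAPN and TUBA the 2 groups of arrays did not overlap, and the differences were smaller than for CAT1. Without Courtot replicate 1 the calls for these 3 genes were lost, with adjusted p of 0.102 for GAPN, 0.147 and 0.183 for SAHH and 0.247 for TUBA, each the highest over 18 alternatives. The call for TUBA was also lost after centring and without S0_54 replicate 3, and those for SAHH without a filter.

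The photosynthesis genes with a symbol were not called. The Rieske protein gene petC encodes a part of the cytochrome b6f complex of the thylakoid. It was at 13.79 and 13.75 in Courtot and at 12.96 to 13.69 in the synthetics, without overlap, a difference of 0.37 (adjusted p = 0.137). Against single groups petC was called for S1_54 (0.60, adjusted p = 0.0499) but not for S0_36 (adjusted p = 0.247) or S0_54 (adjusted p = 0.770). FBP, fructose-bisphosphatase, an enzyme of the Calvin cycle and of sucrose synthesis, was at 10.30 and 9.47 in Courtot and at 9.79 to 10.41 in the synthetics (-0.25, adjusted p = 0.511). The TATA-binding protein gene TBP1 gave 0.07 (adjusted p = 0.886). XTH, a xyloglucan endotransglucosylase/hydrolase that remodels the cell wall, was at 7.60 and 5.47 in Courtot and at 5.56 to 8.41 in the synthetics (-0.55, adjusted p = 0.541), a spread that covers the difference. The 15 pathway lists drawn up for wheat leaves and polyploids met these data in 4 lists only, with at most 2 tested probe sets each, because so few probe sets are named. Their members are FBP, petC, CAT1, GAPN and SAHH. The probe sets of COR410, PFK, THI1.1, THI1.2 and TTHV were not tested, since none passed 3.88 on any array.

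**Figure D3:**
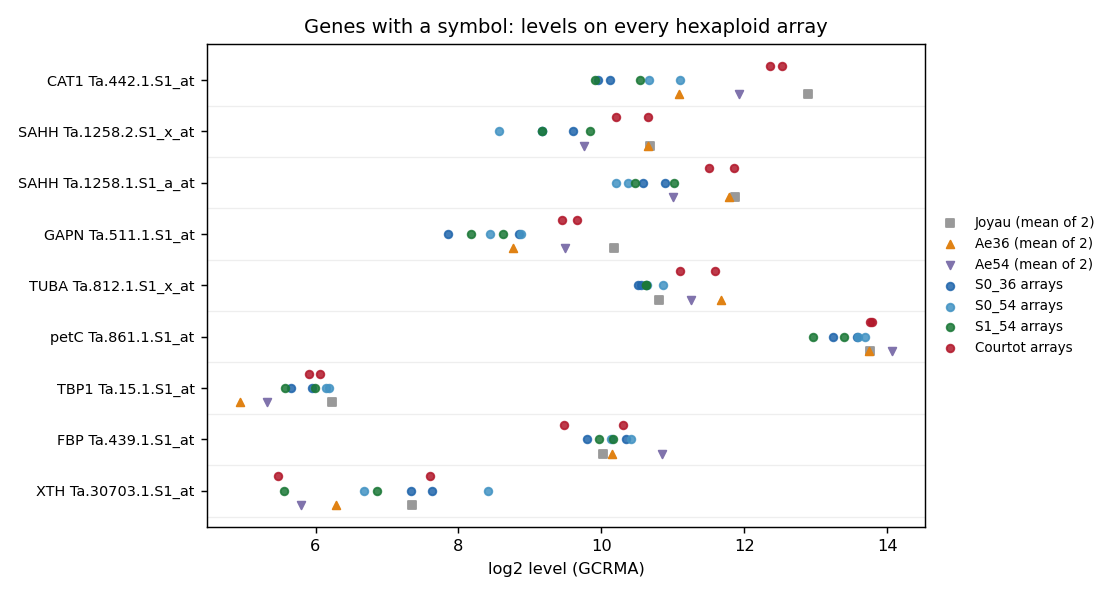
Log2 levels of the 9 tested probe sets with a gene symbol, ordered by the difference between Courtot and the synthetics. Circles are single hexaploid arrays and squares and triangles are parental means. In the top 5 rows (CAT1, SAHH, GAPN and TUBA) and in the petC row below them, both Courtot arrays lie above all 6 synthetic arrays. For FBP and XTH one Courtot array is below all 6 and the other is inside their range.

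Probe sets that read as absent in one kind of hexaploid and as present in the other were few, and most of them were present in Courtot. A probe set was taken as absent below 3.5 and as present from 6 upward on every array of a kind. By this measure 78 were present in Courtot only and 23 in the synthetics only. The 78 had a median level of 7.37 in Courtot, from 6.08 to 10.67, and medians of 2.61 to 2.65 in the synthetic groups. In 70 of the 78 all 3 parents were below 3.5 as well, and in 2 any parent reached 6. LOC543418 is the only one of the 78 with a gene name. The strongest of all unnamed probe sets in this direction were Ta.5598.1.S1_at, at 11.46 and 9.88 in Courtot, and Ta.659.5.S1_at, at 10.44 and 10.61, while all parental and synthetic group means of both were between 2.25 and 3.17.

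Most of the 23 probe sets present in the synthetics only were also present in Joyau. In 21 of the 23 Joyau reached 6, with a median level of 7.41, while the medians of Ae36 and Ae54 were 2.97 and 2.86. Ae36 reached 6 in 1 and Ae54 in 2, and 1 of the 23 was below 3.5 in all parents. LOC778394 and LOC543352 were among the 23. With looser limits, below 4 and at least 5, the counts were 190 and 70, and in 56 of the 70 Joyau reached 5. With stricter limits, below 3 and at least 7, they were 32 and 3, and in all 3 Joyau reached 7. These limits chose the levels in the hexaploids, and the parental levels are not free of the choice. The synthetics descend from these parents, and Joyau is a parent of all 3 synthetic groups. Probe sets low in both synthetics and parents passed the filter of 5 mainly through the 2 Courtot arrays. The relation to the parents is therefore a description only.

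**Figure D4:**
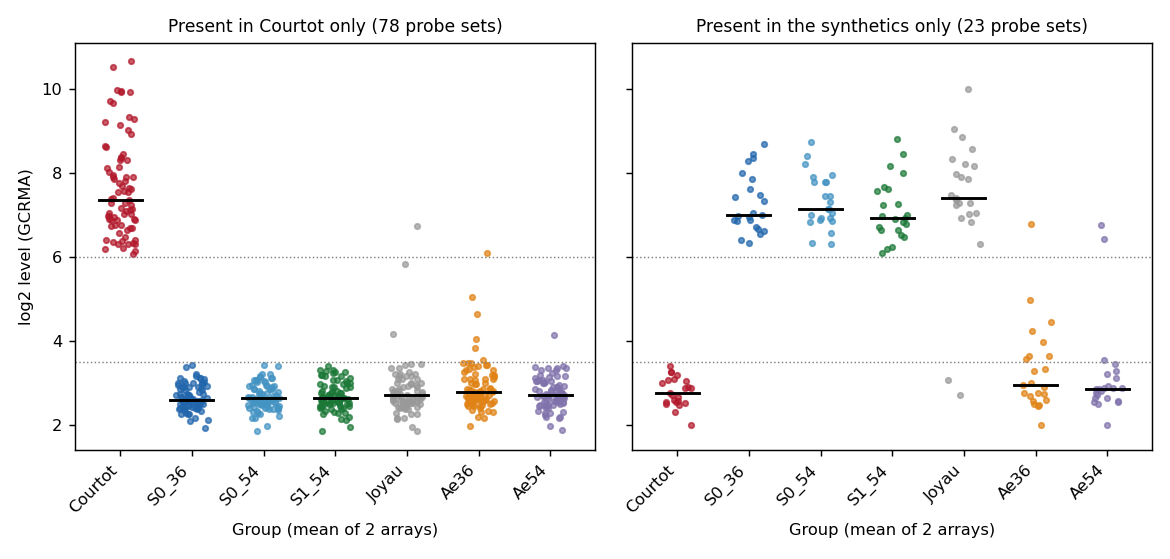
Log2 group means (2 arrays each) of the 78 probe sets present in Courtot only (left) and the 23 present in the synthetics only (right), with the limits of 3.5 and 6 as dotted lines and group medians as black bars. On the left the parents lie with the synthetics at the floor, and on the right Joyau lies with the synthetics, at a median of 7.41.

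The position of both kinds of hexaploid was then compared with the range of the 3 parental means, widened by 0.5 on either side. Among the 1367 probe sets called higher in Courtot by at least 1, Courtot alone was outside this range in 424 (31.0%) and the synthetics alone in 166 (12.1%). Among the 1347 called lower, Courtot alone was outside in 114 (8.46%) and the synthetics alone in 407 (30.2%). Over all tested probe sets, in either direction, these shares were 5.22% and 7.01%. Both Courtot and the synthetics were within the range in 52.9% of those higher and 58.4% of those lower, against 85.3% of all tested. The shares are not like for like. A difference of at least 1 by itself places 1 kind of hexaploid outside the range more often and fixes the side. The synthetics also descend from these parents, and Courtot does not. With the 2 RNA mixes included in the range, an alternative added after the data had been seen, the counts were 416 and 148 of those higher and 108 and 394 of those lower. The Courtot mean rests on 2 arrays and that of the synthetics on 6. Without Courtot replicate 2 the 114 became 266, and without Courtot replicate 1 the 407 became 136.

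**Figure D5:**
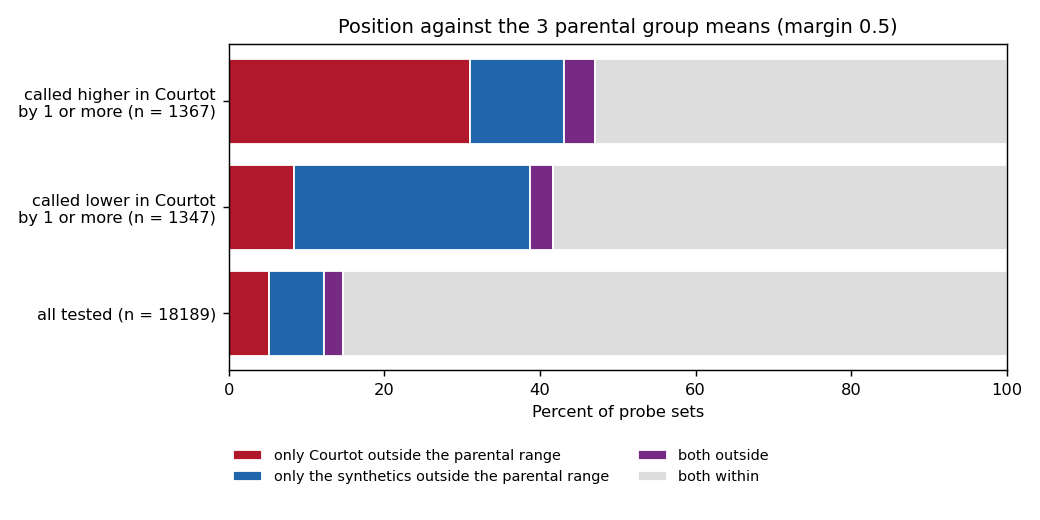
Percent of probe sets by the position of Courtot and of the mean of the synthetics against the range of the 3 parental means, with a margin of 0.5, for probe sets called higher or lower in Courtot by at least 1 and for all tested. Courtot alone is outside in 31.0% of those higher, and the synthetics alone in 30.2% of those lower.

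Probe sets that separate the parents showed how Courtot reads transcripts typical of either. At 1475 probe sets Joyau was at least 3 log2 units above both Aegilops accessions, and at 876 it was at least 3 below both. This grouping was made after the data had been seen. The median level of the Joyau-high probe sets was 6.78 and 6.97 on the Courtot arrays and 6.91 to 7.08 on the synthetic arrays, against 8.01 and 7.91 in Joyau. For the Aegilops-high probe sets it was 6.54 and 6.74 in Courtot and 6.44 to 6.89 in the synthetics, against 8.21 to 8.43 in the Aegilops arrays. As a whole, then, both classes were read in Courtot at levels close to those in the synthetics, with median differences of 0.01 and 0.02. Single probe sets were called in both directions: of the Joyau-high ones 15.5% were called higher and 18.8% lower, and of the Aegilops-high ones 16.2% and 17.1%, beside 14.5% and 11.9% over all tested probe sets. By at least 2, 31 of the 1475 Joyau-high probe sets were higher in Courtot and 126 lower. Of the 876 Aegilops-high ones, 14 were higher and 25 lower, and of all 18189 tested, 400 and 526. Both classes were chosen by levels in the parents of the synthetics, from which Courtot does not descend. The counts are therefore not like for like, and the part of this choice in them was not tested.

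The most negative difference of all belonged to an Aegilops-high probe set, Ta.30807.3.S1_at, at 4.07 and 4.08 in Courtot and at 13.10 to 13.32 on the synthetic arrays. Joyau was at 3.29, Ae36 at 13.42 and Ae54 at 13.81, so Courtot read as Joyau did. A Joyau-high example is Ta.28722.1.A1_at, at 3.24 and 4.20 in Courtot and at 9.68 to 11.15 in the synthetics, with Joyau at 9.90, Ae36 at 3.91 and Ae54 at 2.46. Their differences were -9.18 ± 0.16 (SE, adjusted p = 3.25e-10) and -6.75 ± 0.46 (SE, adjusted p = 2.27e-06), and the files used here name a gene for neither.

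Some sequence clusters held probe sets that differed in opposite directions. Probe sets whose names share a cluster number (Ta.30807 and so on) stem from related transcript sequences, which may include homoeologs. Of 2832 clusters with at least 2 tested probe sets, 579 had at least 2 called, in one direction in 550 and in both directions in 29, and in 17 clusters by at least 1 each way. In cluster Ta.30807, Ta.30807.2.S1_s_at was higher in Courtot by 1.23, at 12.93 and 12.84 against 11.29 to 11.92 in the synthetics, beside the -9.18 of Ta.30807.3.S1_at. The remaining tested probe set of that cluster was not called (-0.50, adjusted p = 0.141). In cluster Ta.2434 the Joyau-high Ta.2434.3.A1_at was at 3.09 and 2.93 in Courtot and at 7.97 to 8.54 in the synthetics, whereas Ta.2434.2.S1_at, also Joyau-high, was at 8.49 and 8.98 against 6.50 to 7.38. In cluster Ta.608, Ta.608.3.S1_at differed by -3.60 and Ta.608.2.S1_at by 3.14. Ta.608.2.S1_x_at was called higher by 0.83 (adjusted p = 0.0199), but Ta.608.2.S1_a_at gave -0.62 and was not called (adjusted p = 0.112). Ta.608.1.S1_at (-0.33, adjusted p = 0.317) and Ta.608.1.S1_x_at (-0.35, adjusted p = 0.135) were not called either. Without either Courtot array the 29 clusters became 17.

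Each synthetic group was also set against Courtot alone. These comparisons share the 2 Courtot arrays, so their results are not independent. Courtot differed from S0_36 at 3893 probe sets (21.4%), 1891 higher and 2002 lower, from S0_54 at 1851 (10.2%), 962 higher and 889 lower, and from S1_54 at 5693 (31.3%), 3536 higher and 2157 lower. The median absolute difference was 0.444, 0.337 and 0.554 in that order. Between the synthetic groups themselves it was 0.318 to 0.390, with 1359 to 1798 calls. Against S1_54 the whole distribution was shifted, with a median difference of 0.192 over all tested probe sets. The share of calls that were higher in Courtot was 62.1% there, 49.5% after each array was centred on its median and 53.7% after quantile normalization. The S1_54 arrays also had the highest hybridization controls, at a mean of 10.26, and 18S rRNA control levels of 8.56 and 7.90, against 4.14 to 5.99 on the other hexaploid arrays. The part of these levels in the counts was not tested. Leaving out S0_36 replicate 3 or Courtot replicate 1 left 1794 and 2100 calls against S0_36. Against S0_54, 1050 remained without S0_54 replicate 3, 1090 without S0_54 replicate 4 and 1119 without Courtot replicate 1, and against S1_54, 3034 without S1_54 replicate 5 and 3742 without Courtot replicate 1.

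Probe sets of the array design whose names start with TaAffx were called more often lower in Courtot, and the others more often higher. Of 4176 TaAffx probe sets 29.6% were called, 468 higher and 767 lower, and of the other 14013, 25.5% were called, 2165 higher and 1406 lower. This split was also chosen after the data had been seen. Calls that were lower made up 62.1% in TaAffx probe sets and 39.4% in the others, and 65.2% and 45.6% after centring. Without Courtot replicate 1 the share in TaAffx probe sets was 42.0%, with 268 higher and 194 lower, and with no filter on low levels it was 46.3%, with 633 higher and 546 lower, so its direction does not hold under either.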

How the data were processed

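Total RNA of 18 samples was hybridised to Affymetrix wheat arrays, 1 sample per array. The authors deposited log2 levels, computed with GCRMA according to the submitters' processing notes. The version is not given in the sources used here. The table holds 61290 probe sets, of which 111 controls were left out.

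Groups came from the sample labels. Each pair of RNA mix arrays, which differed by an SD of only 0.131 and 0.117, was averaged and counted as 1 sample, leaving 16 samples in 9 groups. The tests took probe sets that reached 5 on at least 2 arrays. A mean per group was fitted with limma 3.58.1 (R 4.3.3, lmFit and eBayes, 7 residual and 3.44 prior degrees of freedom), two-sided. Courtot was set against the mean of the 3 synthetic groups, weighted equally, with Benjamini-Hochberg adjustment over all 18189 probe sets. Standard errors are those of the fit, and n is 2 arrays a group, whose number limits the precision.

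Named genes were the 12 largest differences in each direction among called probe sets with 1 gene, a difference of at least 1 and no overlap with the 6 synthetic arrays, 1 probe set per gene, besides every gene with a symbol and the 2 largest unnamed probe sets in each direction. Names come from a platform table of 1273 probe sets. The samples compared, the lists and the rules were chosen with earlier results of these data known. Alternatives changed the filter, scaling, weights, model and arrays. The code was tested on simulated data.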

Additional observations from a re-analysis of the deposited data

Results flagged for a closer look

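For 6 of the named genes the difference from Courtot was not the same in 2 synthetic groups, by limma's test of the difference between those groups (Benjamini-Hochberg adjusted over all tested probe sets). A gap is the first difference minus the second. Between the crosses at generation 0, LOC543261 was higher in Courtot by 3.06 against S0_54 and by 0.93 against S0_36, a gap of 2.13 (adjusted p = 0.000183). For LOC543196 the difference was -0.92 against S0_54, which was not called (adjusted p = 0.307), and -5.22 against S0_36, a gap of 4.31 (adjusted p = 0.000346). LOC100037634 differed from S0_54 by -2.37 and from S0_36 by -1.36, a gap of -1.01 (adjusted p = 0.0394). Between the generations of the accession 54 cross, LOC542781 differed from S0_54 by -1.63 and from S1_54 by -3.90, a gap of 2.27 (adjusted p = 0.00435), and LOC543111 by -4.75 and -3.20, a gap of -1.55 (adjusted p = 0.0461). S0_36 and S1_54 differ in both cross and generation. From these, LOC543292 differed by 2.38 and 3.78, a gap of -1.40 (adjusted p = 0.0109). The corresponding gaps were -2.24 for LOC543261 (adjusted p = 0.000108), -4.52 for LOC543196 (adjusted p = 0.000214), 2.86 for LOC542781 (adjusted p = 0.000187) and 1.14 for LOC100037634 (adjusted p = 0.0184). Other probe sets of these genes gave smaller gaps. At generation 0 they were 0.79 for LOC543261 (adjusted p = 0.241) and -0.69 for LOC100037634 (adjusted p = 0.0867), not called. Between the generations, LOC543111 gave -1.23 (adjusted p = 0.0635) and -0.07 (adjusted p = 0.877), also not called. Between S0_36 and S1_54 they were called, at -1.51 for LOC543261 (adjusted p = 0.0206) and 1.02 for LOC100037634 (adjusted p = 0.0132). Courtot drops out of each gap, which is the difference between the synthetic groups themselves.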

How the results depend on the processing

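Of the 33 named probe sets that were called, 24 kept the call under every alternative run and all 33 kept their direction. The 9 that lost it at least once were LOC100037585, LOC100125748, LOC543499, LOC100125679, LOC606352, GAPN, TUBA and both probe sets of SAHH. Without Courtot replicate 2 the uncalled differences changed sign for FBP, TBP1 and XTH, and with single arrays left out they ran from -0.66 to 0.17, from -0.0055 to 0.15 and from -1.62 to 0.52. Leaving out 1 array gave 1996 to 4669 calls for the main comparison, 1794 to 3767 against S0_36, 1050 to 1766 against S0_54 and 3034 to 5287 against S1_54. It gave 392 to 442 and 113 to 217 probe sets higher in Courtot with only Courtot or only the synthetics outside the parental range, 78 to 266 and 136 to 480 lower ones, 78 to 99 present in Courtot only, 23 to 38 in the synthetics only, and 17 to 29 clusters in both directions. The cause of these shifts was not tested beyond the smaller number of arrays. Generation 0 alone gave 3187 calls for the main comparison, and the mixes counted as separate samples gave 2853 against S0_54. Of the parental positions, higher with only Courtot outside became 713 without a filter and 264 with the floor at 6, and higher with only the synthetics outside became 100 with generation 0 alone and 42 with a margin of 1. Lower with only Courtot outside became 173 after centring, 222 with no margin and 43 with a margin of 1. Lower with only the synthetics outside became 255 without a filter, 269 with the floor at 6, 252 with generation 0 alone and 216 with a margin of 1. Present in Courtot only became 190 with the limits at 4 and 5 and 32 with 3 and 7, and in the synthetics only 70 and 3. No paired analysis was possible because the Courtot replicates carry the numbers 1 and 2, which no synthetic group uses.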
